A study of Mus musculus with 2 samples.

Results

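The 9 genes described here encode hydroxysteroid dehydrogenases and a steroid reductase, enzymes that oxidise or reduce single positions of the steroid ring and side groups. They are Hsd3b5, Hsd11b1, Hsd17b2, Hsd17b6, Hsd17b10, Hsd17b11, Hsd17b12, Hsd17b13 and Srd5a1. The genes were chosen by name from this enzyme family with the liver difference measured on these same arrays already known, so their values are a description and support nothing by themselves. A probe set, the group of short oligonucleotides that reads one transcript on the array, was taken for a member when the array annotation named that gene alone. This gave 14 probe sets for 8 of the 9 genes, out of 34945 probe sets that named 1 gene. Srd5a1 is not analysed here. All 8 genes passed the filter on dim probe sets, among 13117 genes in all.

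Liver was taken from male wild-type C57BL/6 mice, aged 8 weeks, at 24 hours after surgery. In the renal ischaemia-reperfusion (IRI) group, which the labels also call acute kidney injury, blood flow to both kidneys was stopped for 30 minutes at body temperature and then restored, and the sham group had the operation without it. Frozen liver of 3 mice per group (100 mg) was combined into a single pool, and each pool was read on 1 Affymetrix array, so the study has 2 samples. With 1 array per group there is no replicate error, no test and no p-value, and every difference below is between these 2 pools. Where 2 signals are given for a probe set, the sham pool comes first and the renal IRI pool second. Pooling also hides the spread between mice, and a lower signal in whole liver cannot tell fewer expressing cells from less RNA per cell.

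These enzymes set how much active hormone a tissue sees. Some make an active steroid inside the cell, as Hsd11b1 does with corticosterone, and others inactivate androgens and oestrogens on their way out through the liver. Several proteins that carry the hydroxysteroid dehydrogenase name work mainly on other substrates, such as fatty acids, retinoids and amino acid breakdown products. Hsd3b5 is a reductase of the 3-beta-hydroxysteroid dehydrogenase group, made in the liver of male mice under the male pattern of growth hormone release. It lies among related Hsd3b genes on mouse chromosome 3.

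All 8 measured members had a lower signal in the renal IRI pool than in the sham pool by their brightest probe set. Over all genes this share was 50.7%. Hsd3b5, the male-specific liver reductase, fell from 5710.0 to 16.5, far under the array median. Hsd17b6, an oxidoreductase of androgen metabolites and retinol, was 2.61-fold lower by its bright probe set. Folds and log2 differences are of the signal plus 16, and a fold of at least some value is a bound set by the median signal of the array. These were the only members at least 2-fold lower, 2 of 8, where 9.59% of all genes were, and none was at least 2-fold higher, against 8.71% of all genes. The members' median log2 difference was -0.70, or -0.67 for the 7 genes other than Hsd3b5, whereas the median over all genes was -0.01, with quartiles of -0.45 and 0.42. Since this contrast was known when the members were picked, nothing is read from these counts.

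The upstream stretches of 3 genes are shown because they belong to the 2 members that were at least 2-fold lower and to Hsd3b3, a relative in the Hsd3b5 cluster whose signal was also far lower. Each is the 250 bases before an annotated transcript start in the RefSeq table of build GRCm38.p6, on the minus strand and written 5′ to 3′. The windows are chr3:98645535-98645784 for Hsd3b5, chr3:98763129-98763378 for the first of 2 listed starts of Hsd3b3, and chr10:128007612-128007861 for the first of 2 listed starts of Hsd17b6. Capitals mark matches to the 5 motifs given after them.
Hsd3b5: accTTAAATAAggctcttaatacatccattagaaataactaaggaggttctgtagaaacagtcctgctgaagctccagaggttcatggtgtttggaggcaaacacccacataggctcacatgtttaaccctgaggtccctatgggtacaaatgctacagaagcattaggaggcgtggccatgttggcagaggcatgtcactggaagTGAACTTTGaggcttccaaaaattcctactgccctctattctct
Hsd3b3: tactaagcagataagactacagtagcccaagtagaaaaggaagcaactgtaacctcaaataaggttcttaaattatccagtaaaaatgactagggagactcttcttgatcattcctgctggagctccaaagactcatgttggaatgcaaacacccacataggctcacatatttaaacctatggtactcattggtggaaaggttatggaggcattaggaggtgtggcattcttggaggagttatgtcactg
Hsd17b6: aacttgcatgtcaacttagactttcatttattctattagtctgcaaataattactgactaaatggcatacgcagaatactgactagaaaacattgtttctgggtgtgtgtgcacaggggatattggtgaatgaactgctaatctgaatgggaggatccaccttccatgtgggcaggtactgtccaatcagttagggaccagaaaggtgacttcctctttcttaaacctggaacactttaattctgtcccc

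The motifs were searched on both strands of 32851 windows of this length. They were TTCNNNGAA (bound by STAT factors), CAAAGTNCA (bound by HNF4), TTGCNNAA (bound by C/EBP factors), TTANNTAA (the D-box bound by Dbp and Nfil3) and TATAAA. The Hsd3b5 window held the HNF4 letters, as TGAACTTTG on the printed strand, at positions -44 to -36 counted from the start. It also held the D-box letters at -247 to -240. Of all windows, 1.19% held the HNF4 letters and 5.43% the D-box letters. Neither the Hsd17b6 nor the Hsd3b3 windows held any of the 5 motifs. The printed Hsd3b3 window ends in the letters atgtcactg, which in Hsd3b5 stand just before the HNF4 letters. The stretch of Hsd3b3 that would pair with those HNF4 letters thus lay past its window and was not searched. Among the other members with a window, Hsd17b11 had TTGCNNAA at -28 to -21, and 9.56% of all windows held it somewhere. Hsd11b1, Hsd17b10, Hsd17b12 and Hsd17b13 had no match. The STAT letters were in 7.02% and TATAAA in 12.4% of all windows. In a global alignment of the upstream windows, Hsd3b5 and Hsd3b3 shared 151 of 199 aligned bases (75.9%), more than Hsd3b5 shared with Hsd3b4 (65.7% at its first start), Hsd3b2 (65.0%), Hsd3b1 (64.1%) or Hsd3b6 (59.4%). A match to these letters is no evidence that a factor binds.

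Hsd3b5 was read by a single probe set (1420531_at). Its signal was 5710.0 in sham liver and 16.5 after renal IRI. The second value lies far under that array's median of 254.1. No detection calls are given, so that median stands in for a detection limit and only a bound is given. Against that median, Hsd3b5 was at least 21.2-fold lower in the renal IRI pool. The log2 difference as measured, -7.46, rests on that dim signal, so Hsd3b5 has no rank among genes that also ended under the median.

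Hsd3b5 stands in a cluster of close relatives, so the probe sets of those genes are given beside it. Hsd3b3, another member of this cluster, had signals of 4353.3 and 224.1 by a probe set whose suffix, _x_at, warns of binding to other transcripts, at least 16.2-fold lower. A second probe set of Hsd3b3 without that suffix went from 1149.0 to 393.3, or 2.85-fold lower. Both probe sets of Hsd3b3 were thus lower, by differing amounts. Hsd3b2 went from 872.5 to 96.8, at least 3.29-fold lower. A probe set shared by Hsd3b6, Hsd3b3 and Hsd3b2 went from 5177.9 to 83.0, and its signal cannot be divided among these genes. Hsd3b1, the form of adrenal and gonadal steroid synthesis, had signals of 267.6 and 257.9, close to the array medians in both pools. Hsd3b7, which acts in bile acid synthesis and not on hormones, was bright in both pools, at 11683.0 and 9612.2 (1.22-fold lower). A probe set naming Hsd3b4 with Gm4450 and Gm10681 was under the array median in both, at 98.4 and 25.4. Within the Hsd3b group the sham signal of Hsd3b5, of Hsd3b3 and of the shared probe set was clear, and the renal IRI signal of all of these was under the array median except for 1 probe set of Hsd3b3.

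**Figure D1:**
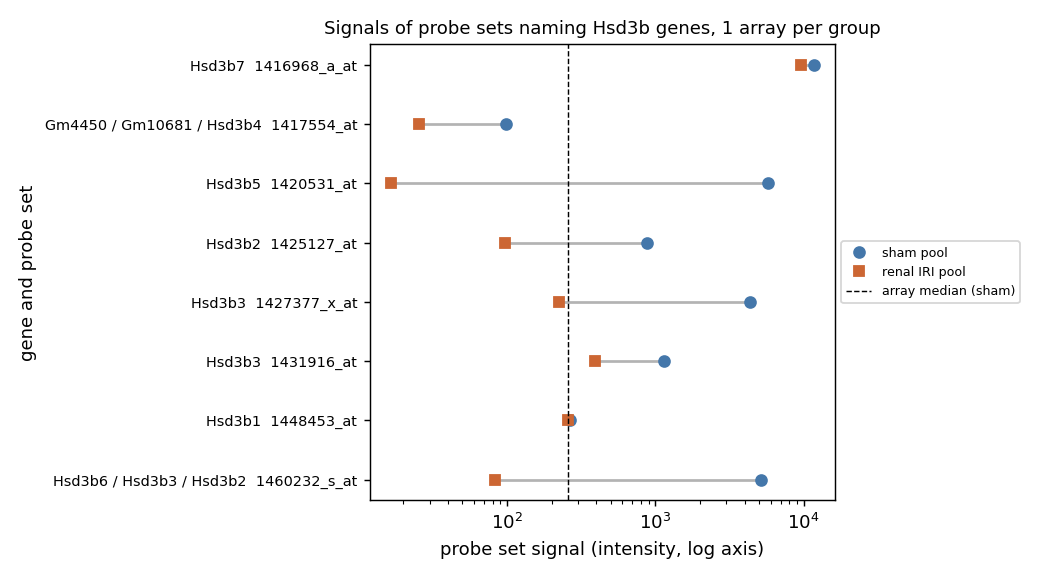
Signal (log axis) of the 8 probe sets that name an Hsd3b gene, alone or with others, in the sham pool (circles) and the renal IRI pool (squares), 1 array each, with the sham array median as a dashed line. Hsd3b5 goes from 5710.0 to 16.5 and the probe set shared by Hsd3b6, Hsd3b3 and Hsd3b2 from 5177.9 to 83.0, while Hsd3b7 and Hsd3b1 stay near their sham values.

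The 5 genes whose 2 log2 signals lay nearest to those of Hsd3b5 were Pbld1, Ppp1r3b, Fam47e, Wee1 and Dpys. Nearness is the Euclidean distance over the 2 samples. Pbld1 had signals of 2893.7 and 39.5, and Ppp1r3b, which brings a protein phosphatase to glycogen, had 2971.9 and 73.8. Wee1, a kinase that restrains entry into mitosis, had 1577.8 and 57.6. Dpys, dihydropyrimidinase of pyrimidine breakdown, had 3318.8 and 121.3. All 5 had a renal IRI signal under the array median, as did Hsd3b5. Signals under the median, which stands in for a detection limit, therefore helped to set these distances. Genes such as Akr1c14 that also ended under the median cannot be placed farther away.

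Hsd11b1 and Hsd17b2 act on hormones at the level of the hepatocyte. Hsd11b1, which regenerates active glucocorticoid from its inert keto form in the endoplasmic reticulum, gave 16928.7 in sham liver and 12121.1 after renal IRI. It was 1.40-fold lower, a log2 difference of -0.48, and 23.2% of all genes had a lower one. H6pd, which supplies the reduced cofactor for Hsd11b1, went the other way, from 4495.6 to 6014.8 (1.34-fold higher). Hsd17b2, which oxidises oestradiol and testosterone to less active forms, had 6866.2 and 6435.6. Its log2 difference of -0.09 was the smallest among the members.

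Hsd17b6 was read by 2 probe sets that did not move alike. The bright one (1449385_at) went from 4947.6 to 1884.7, a log2 difference of -1.38, and 5.66% of all genes had a lower value. The other (1449386_at) was near the array medians, with 330.9 and 380.3, a log2 difference of 0.19. The mean of both probe sets was -0.60, under 2-fold. The 2-fold difference of Hsd17b6 therefore rests on 1 probe set. Sdr9c7, the adjacent protein-coding gene and a related short-chain dehydrogenase, went from 803.5 to 166.5, under the array median. Prim1, a DNA primase subunit on the other side, had 692.8 and 791.2. Several measured neighbours of other members differed little. Log2 differences were -0.05 for Huwe1 and -0.33 for Ribc1 beside Hsd17b10, and 0.38 for Alkbh3 and -0.10 for Ttc17 beside Hsd17b12. Sdr42e1, beside Hsd17b2, had -0.36.

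Hsd17b11 and Hsd17b13, adjacent genes on chromosome 5, encode enzymes that sit on lipid droplets. Hsd17b11 went from 9529.3 to 5185.9 by its brightest probe set, 1.84-fold lower. Its second probe set went from 344.9 to 143.1, and the third was under the array median in both pools, at 26.9 and 10.7. Both that passed the filter were lower in the renal IRI pool. Hsd17b13 went from 5519.0 to 4045.1, 1.36-fold lower, and its second, dim probe set had 275.3 and 291.2. Both genes thus had a bright probe set with a lower signal, and neither reached 2-fold by it.

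Hsd17b12 is the ketoacyl reductase of fatty acid elongation in the endoplasmic reticulum. Its 2 probe sets were both bright, with signals of 4924.5 and 2962.3 in one and 4044.9 and 2791.9 in the other. They were 1.66-fold and 1.45-fold lower, the closest accord among members with several probe sets. Hsd17b10 is a mitochondrial enzyme of isoleucine breakdown and also a subunit of the RNase P that trims mitochondrial transfer RNAs. It went from 3700.1 to 2319.3 (1.59-fold lower), and a probe set with the suffix _x_at from 1014.1 to 527.6 (1.89-fold lower). Both probe sets of each gene were lower.

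**Figure D2:**
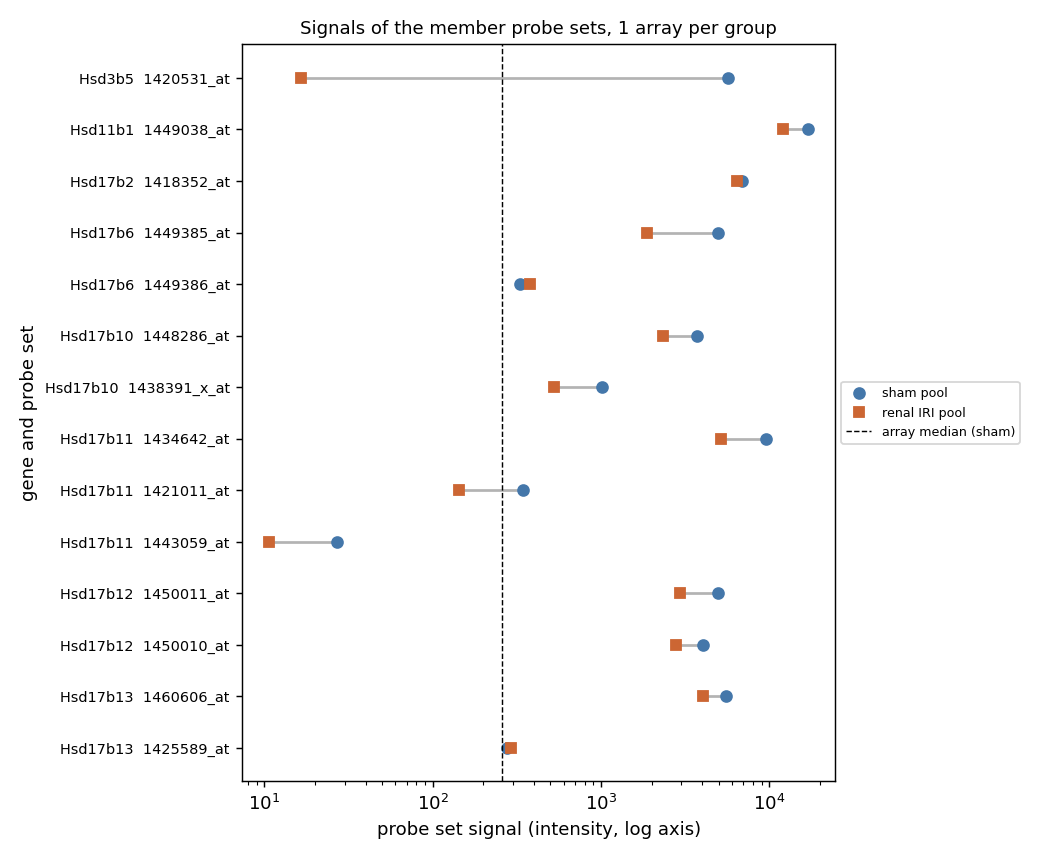
Signal (log axis) of all 14 probe sets of the members in the sham pool (circles) and the renal IRI pool (squares), 1 array each, with the sham array median as a dashed line. The widest gap is that of Hsd3b5, and the dim probe sets of Hsd17b6 and Hsd17b13 are the 2 that lie slightly higher in the renal IRI pool.

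Of the 13 member probe sets that passed the filter, 11 were lower and 2 higher in the renal IRI pool. One more did not pass. The share of lower probe sets over the whole array was not computed, so nothing is read from this count. For scale, probe sets of the same gene differed with an SD of 0.72 in log2 difference over 5028 genes with several of them. The differences of Hsd11b1, Hsd17b2, Hsd17b10 and Hsd17b13 were smaller than this. Those of Hsd17b11 (-0.88) and Hsd17b12 (-0.73) were about as large as it, and those of Hsd17b6 and Hsd3b5 exceeded it. This SD is between probe sets of the same gene, not between repeated arrays, and says nothing of the spread between mice.

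Other enzymes of the same kind were taken from a list of 31 names, of which 23 genes passed the filter. Of these, 11 were lower by 2-fold or more, 1 was higher by as much and 11 lay within 2-fold, with a median log2 difference of -0.44. Over all genes, 9.59% were lower and 8.71% higher by 2-fold or more, and these shares stand beside each list count below. The lists were chosen with earlier results of these data known, so nothing is read from their counts. The aldo-keto reductases of the Akr1c group, which reduce ketosteroids and oxidise hydroxysteroids, made up most of the lower genes of this first list. Of 8 Akr1c genes, 7 were at least 2-fold lower and their median was -1.95. Akr1c14 had signals of 7929.6 and 134.0 (at least 29.4-fold lower) and Akr1c6, which acts on oestrogens and androgens, 24110.2 and 5207.1 (4.62-fold lower). Akr1c18, which inactivates progesterone, was the exception, with 464.9 and 592.6. Akr1d1, the reductase that saturates the ring of steroid hormones and bile acid precursors, went from 3767.9 to 612.6, or 6.02-fold lower, with both probe sets lower.

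The other genes with the Hsd17b number differed less. Of 5 that passed, none was 2-fold lower. Hsd17b4, the multifunctional enzyme of peroxisomal fatty acid oxidation, went from 5536.7 to 4064.4, and H2-Ke6, also known as Hsd17b8, from 1216.7 to 923.1. Hsd17b7, which acts in cholesterol synthesis, was higher by its brightest probe set (1751.4 and 2575.6, suffix _x_at), and 1 of its 4 probe sets was lower. Hsd17b14 had signals of 222.6 and 513.4, which is the 1 higher call and is bounded at 1.94-fold once the sham signal is taken at its array median. Hsd11b2, which inactivates glucocorticoid in kidney and gut, and Hsd17b1, of oestrogen synthesis in the ovary, were under the array median in both pools. Srd5a3, which makes dolichol for protein glycosylation, had 463.9 and 631.1, by a probe set with the suffix _s_at. Members and other genes together gave 31, with 13 past 2-fold in the lower direction and 1 in the other. Over all genes these shares were 9.59% and 8.71%.

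**Figure D3:**
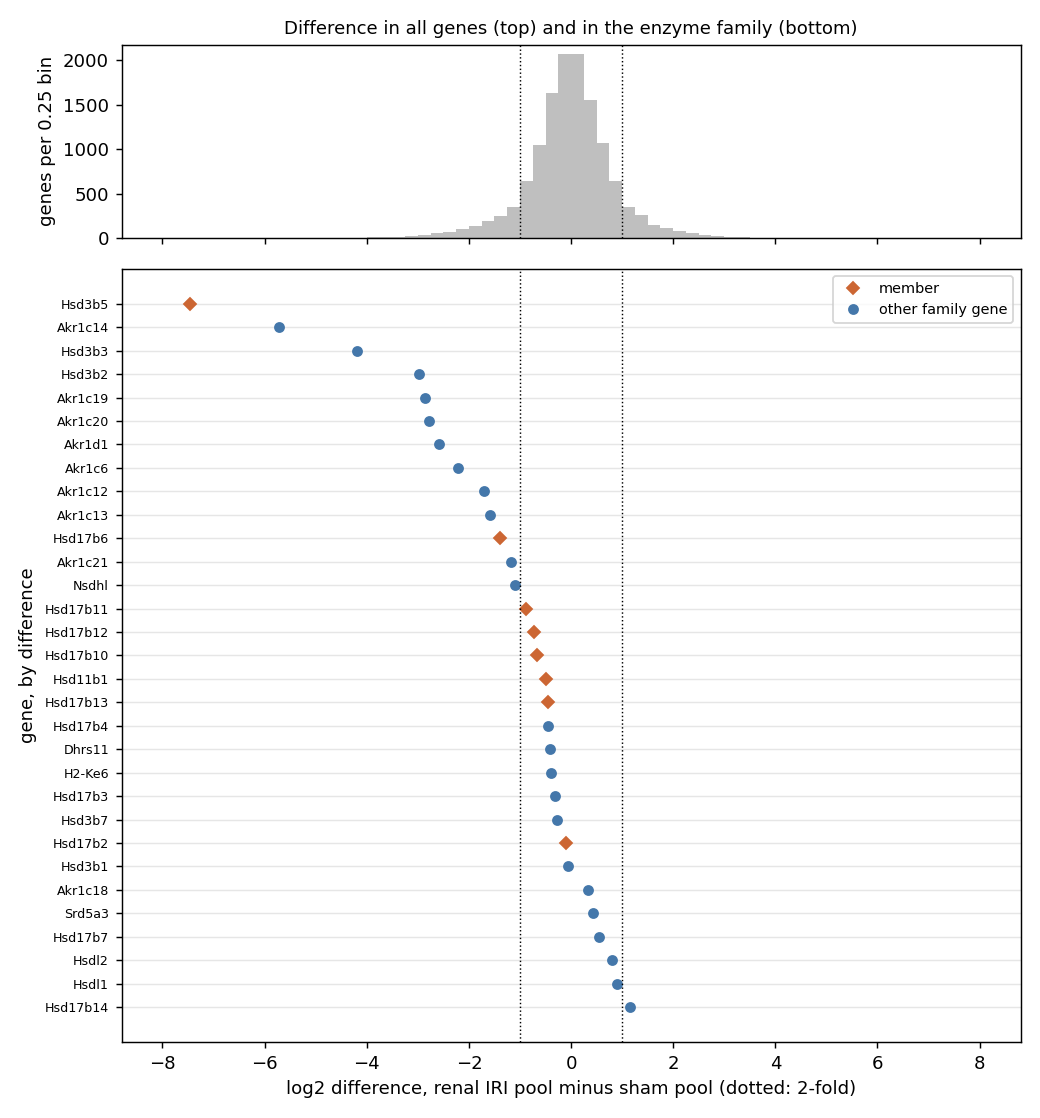
Top, number of genes in each 0.25-wide bin of log2 difference (renal IRI pool minus sham pool) over 13117 genes. Bottom, the same difference for the 8 members (diamonds) and 23 other genes of the family (circles), with dotted lines at 2-fold. Hsd3b5 (-7.46) and Akr1c14 (-5.73) are plotted at the low end, both against renal IRI signals under the array median, so their order is not measured. Hsd17b14 (1.15), with a sham signal under the median, is plotted at the high end.

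A further list held enzymes that conjugate or hydroxylate steroids. Of 17 such genes past the filter, 10 were lower by 2-fold or more and 1 was higher by as much (median -1.04). The lowest were Sult2a8, a sulphotransferase of bile acids, which went from 17913.4 to 3241.4, and Ugt2b35, a glucuronosyltransferase, from 9984.4 to 2182.6. Sult1e1, which sulphates and so inactivates oestrogen, was the higher gene, at least 18.5-fold, going from 8.2 to 5030.8. The second highest was Cyp17a1, of androgen synthesis, with 517.2 and 695.3. Cyp7b1, a hydroxylase of steroids and oxysterols that is male-biased in mouse liver, went from 14839.0 to 7386.5.

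Of 13 steroid receptors, cofactors and carriers, 3 were lower by 2-fold or more and 0 were higher by as much (median -0.61). Raising dim signals to the array median left 2 lower and moved the median to -0.28. Nr3c2, the mineralocorticoid receptor, was dim, with 304.9 and 33.7 (at least 1.19-fold lower), and Fkbp4, a chaperone partner of steroid receptors, went from 1058.8 to 260.2. The highest were Ncoa2, a receptor coactivator (980.5 and 1551.0), and Fkbp5, a glucocorticoid-induced partner of the receptor (2708.1 and 3836.1). Nr3c1, the glucocorticoid receptor, went from 1638.4 to 909.2 (1.79-fold lower), with all 4 probe sets lower. Esr1, the oestrogen receptor alpha, had 906.9 and 745.7, and its 2 probe sets past the filter differed in sign.

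Because Hsd3b5 is a male-specific liver gene, genes that mouse liver makes mainly in one sex were set beside it. Of 15 male-biased genes, Hsd3b5 not among them, 7 were past 2-fold in the lower direction and 0 in the other (median -0.83). The lowest were Nudt7, a peroxisomal coenzyme A hydrolase (17487.6 and 4789.8), and Slco1a1, an organic anion transporter (7937.1 and 2789.4). Elovl3, a fatty acid elongase, went from 2505.1 to 1197.4. The highest were Mup3, a major urinary protein (39318.0 and 47837.6, suffix _x_at, with its 2 probe sets of opposite sign), and Gstp1, a glutathione transferase (47829.0 and 49000.2). Of 12 female-biased genes, 3 were lower by 2-fold or more, and Sult1e1 alone was higher by as much (median 0.13). With dim signals raised, only Cyp4a14, a fatty acid hydroxylase (2554.8 and 614.8), was still 2-fold lower. Abcd2, a peroxisomal fatty acid transporter, had 272.4 and 21.7, at least 1.07-fold lower. Hamp2, a hepcidin, was the second highest, with 1543.7 and 2992.3, by a probe set with the suffix _x_at. The female-biased Cyp2b9 (433.3 and 338.2) and Cyp2b13 (169.4 and 267.5) stayed near the array medians.

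The male pattern of such genes is set by pulses of growth hormone through its receptor and Stat5b. Of 15 genes of this signalling and its liver regulators, 4 were past 2-fold in the lower direction and 2 in the higher (median -0.45). Ghr, the growth hormone receptor, went from 6605.2 to 4154.3 (1.59-fold lower) and Stat5b from 935.5 to 453.9 (2.02-fold lower), with all probe sets of both lower. Stat5a had signals of 505.5 and 99.1, at least 1.93-fold lower, so 3 were lower by 2-fold or more with dim signals raised to the median. Igfals, the acid-labile partner of insulin-like growth factor, went from 3004.1 to 714.1 (4.14-fold lower). Igf1, that growth factor and likewise a growth hormone target, had 13069.8 and 15116.6, with 2 of its 4 probe sets lower. Socs2, from 512.0 to 2562.0, and Socs3, from 918.5 to 4046.3, were the highest, and both encode inhibitors of cytokine and growth hormone signalling. Bcl6, a repressor of female-biased genes in male liver, went from 786.3 to 198.8 (at least 2.97-fold lower). Hnf4a, a main transcription factor of hepatocytes, had 10775.4 and 10317.0, and 2 of its 4 probe sets were lower. Whether any of these differences bears on Hsd3b5 was not tested.

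Further lists cover the partners of members that work outside hormone metabolism. Among 19 proteins of lipid droplets and lipolysis, 4 were lower and 7 higher by 2-fold or more (median -0.05). Cidec, a droplet fusion protein, was at least 15.8-fold higher (79.7 and 4291.0), and Plin2, the main droplet coat protein of liver, went from 7178.3 to 46878.0. Fitm1, a droplet formation protein (1436.5 and 356.5), and Ces1d, a triglyceride hydrolase (14063.5 and 5460.5), were the lowest. Hsd17b11 and Hsd17b13, at 1.84-fold and 1.36-fold lower by their brightest probe sets, thus lay on the opposite side from Cidec and Plin2. They lay on the same side as 10 of these 19 genes. G0s2, an inhibitor of lipolysis whose gene is adjacent to Hsd11b1, went from 1198.0 to 3374.6, while Hsd11b1 was lower.

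Of 16 genes of fatty acid elongation and its partners, 6 were lower and 1 was higher by 2-fold or more (median -0.52). Elovl2 (7975.1 and 1395.1) and Elovl6 (2844.0 and 698.2), both elongases, had the widest gaps among the genes bright in both pools that were lower. Acsl3, which activates fatty acids, was at least 3.72-fold lower (987.3 and 153.0, suffix _s_at). The highest were Elovl5 (7067.6 and 15332.5) and Hacd3 (4947.3 and 8957.6). Tecr, which catalyses the last step after Hsd17b12, went from 10735.9 to 6161.4 (1.74-fold lower). For Hsd17b10, 16 genes of mitochondrial transfer RNA processing and branched-chain amino acid breakdown were listed, of which 6 were past 2-fold in the lower direction and 1, Prorp, in the other (median -0.79). Bckdha, of the branched-chain ketoacid dehydrogenase, went from 4039.3 to 1191.7, and Hibch, of valine breakdown, from 2269.5 to 691.8. Prorp, the nuclease subunit of mitochondrial RNase P, had 77.4 and 440.2, at least 1.67-fold higher, and with dim signals raised to the median no gene was higher by 2-fold. Trnt1, which completes transfer RNA ends, had 297.3 and 540.5 (1.78-fold higher). Trmt10c, the other partner of Hsd17b10 in that RNase P, had 252.3 and 326.4.

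Retinol dehydrogenases share the fold and some substrates of Hsd17b6. Of 18 genes of retinoid handling, 5 were lower and 1 was higher by 2-fold or more (median -0.21). Dhrs3, which reduces retinal to retinol, went from 2802.6 to 343.7 and Aldh1a1, which makes retinoic acid, from 21859.2 to 3622.7. Bco1, which cleaves carotene, was the highest, from 635.4 to 2047.9, followed by Ttr, the retinol carrier of plasma (49052.6 and 64981.5, suffix _s_at). Rdh16, a relative of Hsd17b6, went from 986.7 to 259.0, and Rdh7, another, from 24556.6 to 10963.5 (2.24-fold lower). Rdh9, of the same group, gave 2658.3 and 2619.7 by a probe set with the suffix _s_at.

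**Figure D4:**
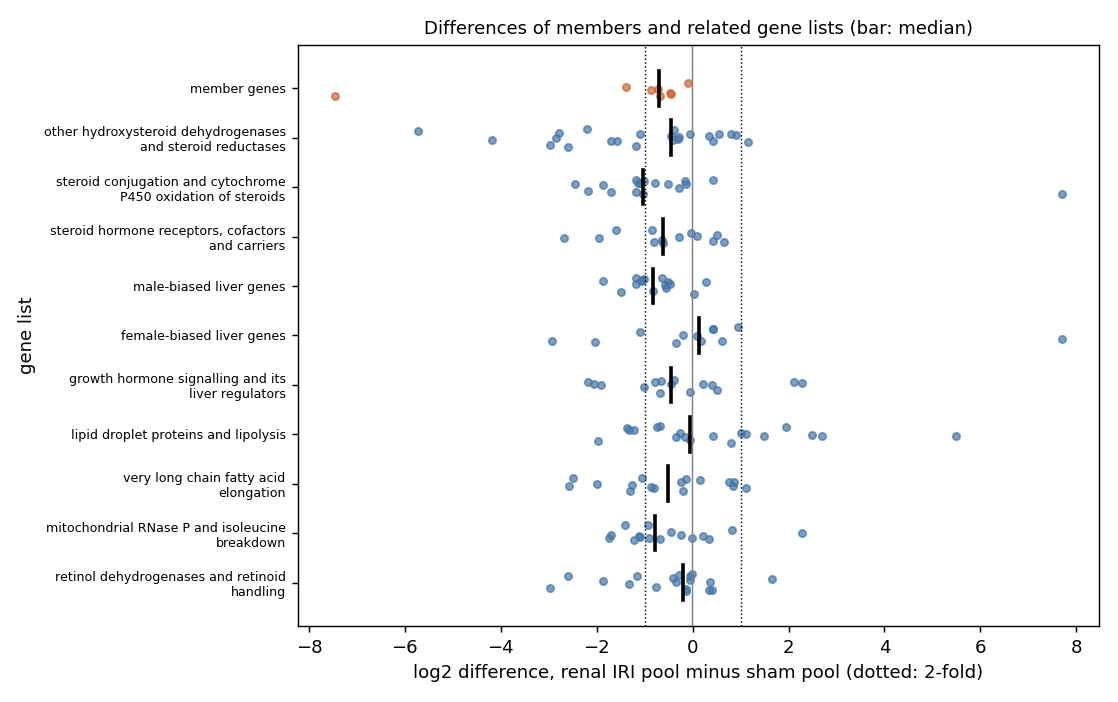
Log2 difference (renal IRI pool minus sham pool) of the 8 members and of each gene past the filter in 10 related lists, 1 point per gene, with a bar at the median of each list, a grey line at the median of all genes and dotted lines at 2-fold. Member genes have a median of -0.70 and steroid conjugation and oxidation genes one of -1.04, while lipid droplet genes (-0.05) spread to both sides. Some genes stand in more than 1 list.

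Both arrays were alike in scale, with median signals of 257.0 (sham) and 254.1 (renal IRI). All 18 bacterial hybridisation controls were brighter on the renal IRI array, with a median log2 difference of 0.28. The summed signal of 9 hepatocyte markers was 333604.6 and 460394.7, and 7 of the 9 lay within 2-fold. That sum was carried by secreted proteins, such as Alb (43572.9 and 72493.8) and the acute-phase gene Fgb (35738.0 and 85965.7), while Cps1, of the urea cycle, was 2.17-fold lower (33264.7 and 15306.7). The part of hepatocyte content in the members' differences was not tested. Of 10 adrenal and gonadal markers with a probe set, 7 were at or above the array medians on both arrays, their summed signal was 11920.0 and 6729.0, and Cyp11a1, the first enzyme of steroid synthesis, was under the median on both (146.5 and 240.9). Fdx1, which liver also makes, was part of that sum, with 7959.7 and 3134.5. Kidney tubule markers summed to 4358.5 and 3864.3. Of these 10 markers, 6 were at or above the array medians on both arrays. Umod, Slc12a3, Cdh16 and Hsd11b2 were under the median on both. Summed signals were 10430.6 and 7298.5 for macrophage markers, 6689.9 and 7524.0 for sinusoidal endothelium, 8292.1 and 11056.1 for stellate cells, 761.7 and 2468.5 for cholangiocytes, 4132.8 and 6191.3 for neutrophils, 2959.2 and 7365.7 for pancreatic acinar cells and 1303.3 and 6856.1 for fat. The sums of these last 4 kinds were each higher in the renal IRI pool. The neutrophil sum rose mainly by S100a8 (45.6 and 1407.4) and S100a9 (204.8 and 788.1). The other 4 of 6 neutrophil markers past the filter lay within 2-fold, and Elane was lower (1384.2 and 1015.7). All 3 cholangiocyte markers past the filter were higher, while Krt7 and Cftr were under the median on both arrays. For fat the higher sum came from Fabp4 (240.2 and 5683.9), with 1 of its 4 probe sets lower. Retn had 1025.1 and 1147.2, and Adipoq was under the median on both arrays, so the higher fat sum rests on 1 gene. The higher stellate sum came from Dcn (3967.7 and 8037.4), and 5 of 6 stellate markers past the filter were lower. The higher endothelial sum came from Lyve1 (326.8 and 2740.5), and 4 of 7 endothelial markers were lower. Signals reached the median in both samples for 1 of 5 cholangiocyte, 4 of 7 neutrophil, 3 of 5 acinar and 1 of 3 fat markers. Their part in the members' differences was not tested.

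The signals were also processed in 13 alternative ways. All measured members were lower in 12 of the 13 alternatives. The exception took, for each gene, the probe set with the smallest difference, by which Hsd17b6 (0.19) and Hsd17b13 (0.08) were slightly higher. A changed pseudocount or filter keeps the sign of the members' brightest probe sets, and every setting uses the same 2 arrays. Nothing is therefore read from the number of settings in which the members were lower. With the hybridisation controls as the reference, 4 members were at least 2-fold lower, the added ones being Hsd17b11 (-1.16) and Hsd17b12 (-1.01), and so were 15.4% of all genes.

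**Figure D5:**
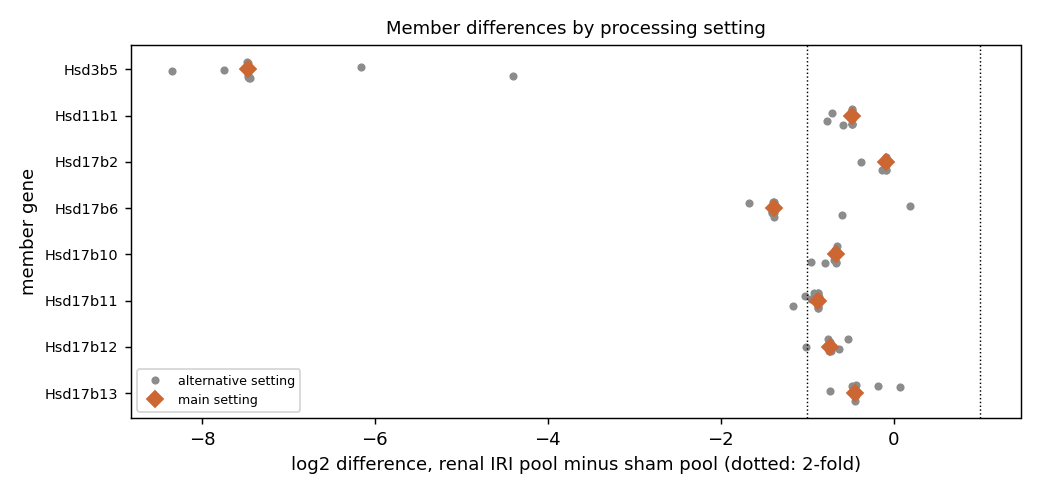
Log2 difference (renal IRI pool minus sham pool) of each member in the main setting (diamonds) and in the alternative settings (grey points), with dotted lines at 2-fold. Hsd3b5 is at least 2-fold lower in each of the 12 alternatives that keep it, from -8.35 to -4.41. That range follows from how its dim renal IRI signal is treated. Hsd17b6 ranges from -1.67 to 0.19.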

How the data were processed

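Liver RNA of 2 pools was measured on 1 array each. Per the labels' protocols, Trizol served for RNA extraction and 6 ug gave the biotin-labelled cRNA. The authors deposited a linear intensity per probe set. With 2% trimmed off either end its mean was 500.0 in both samples, so values had been scaled to a common level before deposit. No summarisation software is named in the labels.

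Gene names came from the platform annotation, updated through Entrez IDs. Signals were taken as log2(signal + 16), which shrinks differences of dim probe sets, and differences are renal IRI minus sham. A probe set passed if its brighter signal reached that array's median, and a gene was represented by its passing probe set with the highest mean log2 signal. A signal under the array median gives a bound on the fold, set against that median, and no fold where both are under it. The median stands in for a detection limit, since no detection calls are given, and the bounds depend on that choice. Genes named are all members, up to 2 highest and 2 lowest of each list by measured difference (no order where a signal is dim), the 5 nearest to Hsd3b5, other family genes, adjacent genes and a small panel. Adjacent genes, Elovl3, Tecr, Trmt10c, Rdh7, Rdh9, Rdh16, Elovl6, Igf1, Alb, Fgb, Cps1, Cyp11a1, Fdx1, Cyp7b1, Cyp2b9 and Cyp2b13 were added after their values were seen. So were Dcn, Lyve1, Fabp4, Retn, Adipoq, S100a8, S100a9, Elane, Krt7 and Cftr. The members and lists were chosen with earlier results of these data known. The motifs and the windows shown were chosen after the values were seen. The reduction to genes and the 2-fold calls were tested on simulated arrays with differences planted in bright genes only. The bounds for dim signals and the motif search were not tested in that way. Python 3.11.15, pandas 2.3.3 and statsmodels 0.14.6 were used. One listed member and 1 panel gene are not reported here.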

Additional observations from a re-analysis of the deposited data

How the results depend on the processing

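The main count of 2 members at least 2-fold lower became 4 with the hybridisation controls as reference, 1 when both signals had to reach the array medians (which removes Hsd3b5), 1 with each gene's least-changed probe set, 5 at a 1.5-fold threshold and 1 at a 3-fold threshold. The share of all genes 2-fold lower was 15.4% with the hybridisation controls, 6.17% with both signals required and 8% with the least-changed probe set. No share of all genes was taken at 1.5-fold or 3-fold. Under the other 10 alternatives the member count was 2, where 6.59% to 10% of all genes were lower by as much. By the mean of the probe sets these 2 were Hsd3b5 and Hsd17b11 (-1.03), not Hsd17b6 (-0.60). No member was 2-fold higher in any alternative. The members' median ranged from -0.98 to -0.51. Hsd17b6 reversed to 0.19 with its least-changed probe set. Hsd3b5 stood at -8.35 with a pseudocount of 1, -6.16 with 64 and -4.41 with dim signals raised to the median. For the 10 related lists, 135 of 150 counts of 2-fold lower genes and 124 of 150 counts of 2-fold higher genes stayed within 1.5 times the main count, and 129 of 130 medians moved by less than the probe set SD of 0.72. The number of arrays limits the precision. No paired analysis was possible because each group is 1 pool.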
